A study of Mus musculus with 6 samples.

Results

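The interferon response and antigen presentation genes comprised 39 genes: 6 guanylate-binding proteins, 8 transcription factors, 4 receptor chains, 11 antiviral effectors and 10 genes of class I antigen presentation. All 39 were found by symbol among the 24393 features counted in each of 6 RNA-seq libraries. The list was chosen by name with earlier results of the same 6 libraries known, above all the difference between HOXA13 and control libraries and the wide spread of Gbp2b among the control libraries. Every value below that sets HOXA13 against control libraries for these 39 genes is therefore a description, with no test.

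The libraries came from KH2 cells, a mouse embryonic stem cell (mESC) line with a docking site for an inducible transgene. Undifferentiated control mESCs (3 libraries, genotype label CONTROL) were set against mESCs built to overexpress human HOXA13, a posterior homeobox transcription factor (3 libraries, genotype label HOXA13). All 6 carry the strain label C57/BL/6, and the labels give no treatment for any of them. The HOXA13 construct was FLAG-tagged, was placed at the docking site by FLPe recombination, and was checked for induction by doxycycline in targeted clones. The replicates were selected as biological ones, but the sources used here do not say which are separate clones, whether the controls carried a construct, or whether these cultures received doxycycline, so p-values measure the spread between these cultures. All cells grew with LIF and serum on irradiated 3T3-Swiss albino fibroblasts, which are mouse cells, so that their reads are counted under the same gene symbols. In bulk RNA, fewer cells of a type and less RNA per cell cannot be told apart.

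Interferons are secreted proteins that bind receptors with 2 chains each. Type I interferons act through IFNAR1 and IFNAR2, and interferon gamma acts through IFNGR1 and IFNGR2. The receptors activate JAK kinases and STAT proteins. STAT complexes bind interferon-stimulated response elements (ISRE) together with IRF9 and bind gamma-activated sequences (GAS) without it, and IRF1 carries the signal to a later set of genes that includes the guanylate-binding proteins, the immunoproteasome and the class I peptide loading genes. Pluripotent stem cells are known for a weak interferon response and for little class I antigen on their surface.

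Total counts per library were 14608681 to 21766589 in the control and 13494135 to 20374341 in the HOXA13 group, so that 3 counts correspond to 0.134 to 0.227 CPM, the count scaled to the library's TMM-adjusted total. The 3 control libraries stood further apart than the HOXA13 libraries did: the chi-square per degree of freedom over genes was 12.7 to 34.2 between control pairs and 1.89 to 6.03 between HOXA13 pairs. The mouse Hoxa13 feature averaged 1.11 CPM over control libraries (SD 0.427, n = 3) and 1.55 CPM over HOXA13 libraries (SD 0.25, n = 3), with an adjusted p of 0.295 (edgeR), but the transgene is human, so this feature does not check the labels, and induction of the transgene in these libraries was not measured. Pluripotency markers summed to 1866, 3209 and 2203 CPM in control 1, 2 and 3. In HOXA13 1, 2 and 3 they summed to 4565, 4473 and 4454 CPM. At an adjusted p of 0.05 (edgeR), 6 of the 8 rose, beside 14.4% of all genes fitted. Fibroblast markers summed to 12470, 18230 and 17570 CPM in control 1, 2 and 3 and to 16070, 18480 and 19550 CPM in HOXA13 1, 2 and 3, with none of the 20 markers at 0 and Mmp3 the only one past the threshold. Leukocyte markers summed to 39.0 to 99.0 CPM, with 0 of the 7 fitted past the threshold, and Ptprc, the pan-leukocyte marker, gave at most 0.529 CPM.

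Promoter sequences are shown for 6 genes, to let a reader see the elements that the interferon pathway is known to use. Gbp2b, Gbp2, Irf1 and Psmb8 passed the threshold and were lower in HOXA13 libraries, though Irf1 overlapped between groups. Ifit1 and Isg15 did not pass. Each sequence runs 5′ to 3′ on the gene's strand, ends at or before the start site, comes from RefSeq promoters on GRCm38.p6, and has in capitals each match to AAANNGAAA (ISRE-type) or TTCNNNGAA (GAS-type), read on either strand. Gbp2b and Gbp2 hold an ISRE-type match, Irf1 and Psmb8 a GAS-type match, and Ifit1 and Isg15 hold 2 and 3 ISRE-type matches, which in Isg15 share bases. All 6 promoters shown hold a match, whereas those of H2-K1, Tapbp and Psmb10, also lower in HOXA13 libraries, hold none.
Gbp2b, chr3:142594670-142594758: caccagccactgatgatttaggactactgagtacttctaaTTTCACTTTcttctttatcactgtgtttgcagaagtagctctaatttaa
Gbp2, chr3:142620564-142620652: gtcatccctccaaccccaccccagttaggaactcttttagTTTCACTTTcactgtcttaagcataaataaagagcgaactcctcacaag
Irf1, chr11:53769884-53769972: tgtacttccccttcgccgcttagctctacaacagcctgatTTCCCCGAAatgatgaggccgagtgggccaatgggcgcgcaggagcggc
Psmb8, chr17:34198058-34198146: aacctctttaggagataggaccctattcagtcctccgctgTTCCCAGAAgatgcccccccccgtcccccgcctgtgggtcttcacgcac
Ifit1, chr19:34640745-34640833: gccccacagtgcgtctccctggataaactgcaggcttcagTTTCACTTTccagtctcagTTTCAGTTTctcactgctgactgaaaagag
Isg15, chr4:156200841-156200929: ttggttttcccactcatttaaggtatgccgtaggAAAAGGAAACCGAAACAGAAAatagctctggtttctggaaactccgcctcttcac

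Of the 39 genes, 35 have an entry in the promoter table (250 bases before to 50 after the start), and Gbp4, Gbp6, Tap2 and Nlrc5 have none. An ISRE-type match occurred in 15 of the 35 (42.9%), against 12.1% of the 27025 genes with a promoter. A GAS-type match occurred in 11 of the 35 (31.4%), against 9.55% of all genes with a promoter. Among the 10 genes past the threshold and lower in HOXA13 libraries (named below), 3 held an ISRE-type and 5 a GAS-type match. Many of the genes are known interferon targets, and a match of 9 letters is a description of the sequence, not a bound site.

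Of the 39 genes, 36 had enough counts to enter the edgeR fit, and Gbp4, Gbp6 and Rsad2 did not. At an adjusted p of 0.05 over all 13846 genes fitted, 10 of the 36 were lower in HOXA13 libraries (Gbp2b, Gbp2, Irf1, Irf8, Ifnar1, Ifitm3, H2-K1, Tapbp, Psmb8 and Psmb10), 2 were higher (Irf9 and Ifitm1) and 24 did not pass. Over all genes fitted, 13.3% were lower and 14.4% were higher by the same rule. The median log2 fold change of the 36 was −0.45, against 0 over all genes fitted. The 3 control and 3 HOXA13 values did not overlap, with HOXA13 lower, in 14 of the 36 and, with HOXA13 higher, in 3, and the same was true of 22.2% and 23.5% of all genes fitted. Some of the 36 entered the fit through their control values alone, so these counts describe the genes fitted and not the whole list.

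**Figure D1:**
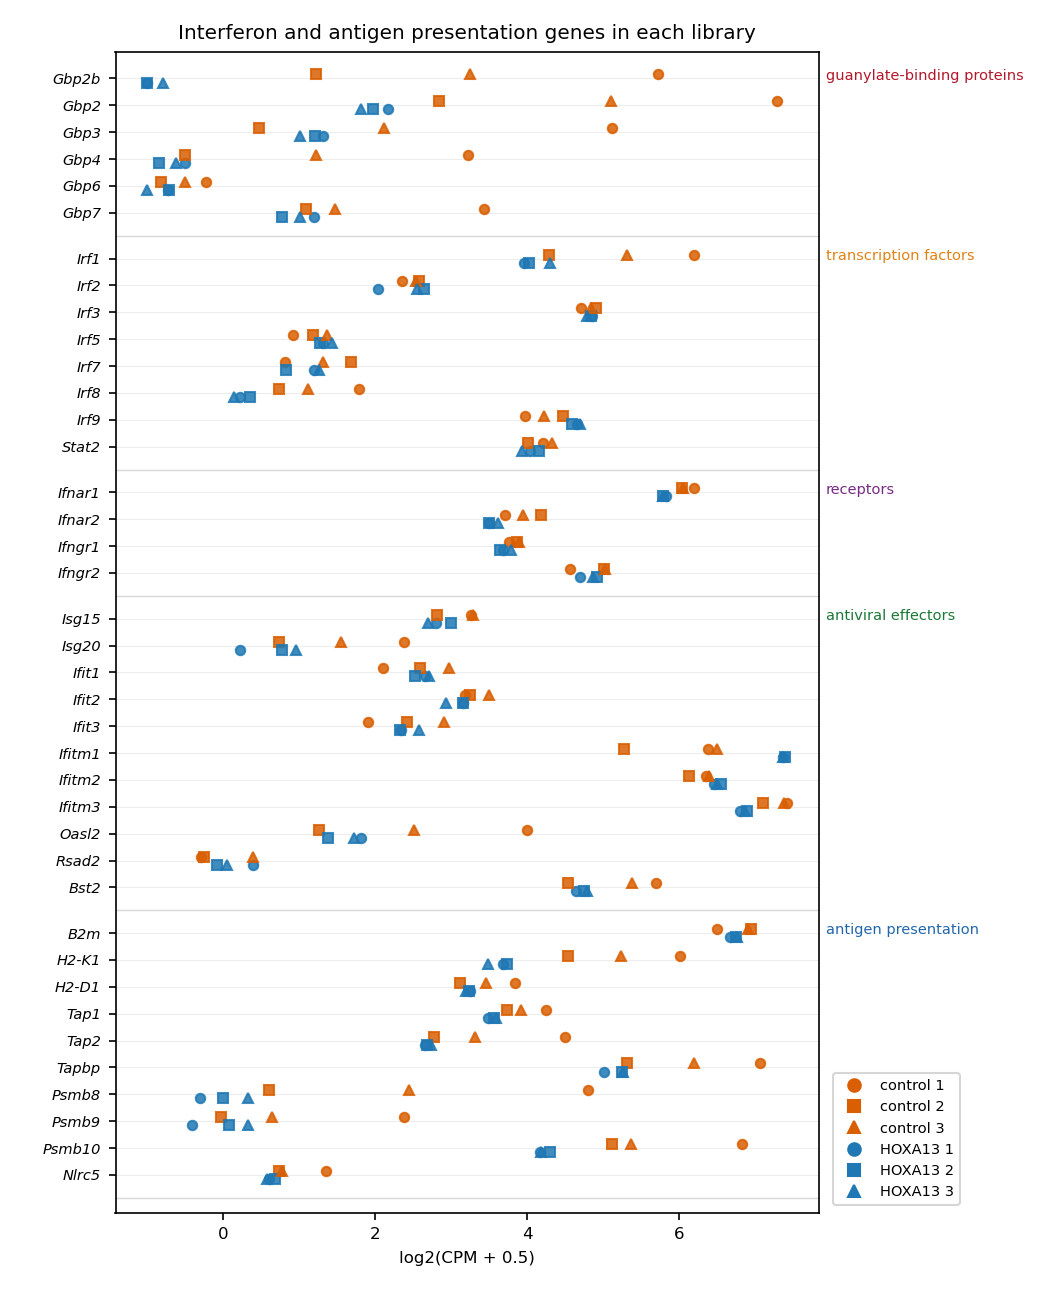
Level of each of the 39 genes in each library, as log2(CPM + 0.5) on the horizontal axis, grouped by role, with control libraries in orange and HOXA13 libraries in blue and a symbol for each replicate. The HOXA13 libraries lie close together in nearly every row, while the control libraries are spread out for Gbp2b, Gbp2, Gbp3, Psmb8 and Oasl2, with control 1 to the right.

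The guanylate-binding proteins are large GTPases that coat intracellular pathogens and their vacuoles. Gbp7, Gbp3, Gbp2b and Gbp2 lie side by side on chromosome 3 of mm9, from chr3:142193302-142213047 (Gbp7) to chr3:142283566-142300972 (Gbp2), and Gbp4 and Gbp6 lie on chromosome 5. These genes are similar in sequence, and reads that fit several of them may have been dropped or split in the counting, so the levels of single members are uncertain.

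Gbp2b (chr3:142257811-142282143) had 52.5, 1.84 and 8.99 CPM in control 1, 2 and 3 and 0, 0 and 0.0756 CPM in HOXA13 1, 2 and 3. These values rest on 1177, 27 and 178 reads against 0, 0 and 1 reads. The ratio of the summed counts, scaled by depth, was 1240 (95% interval 222 to 49020, counting error only), and the fitted log2 fold change of −9.66 ± 2.00 (SE) depends on the prior count and was −7.69 without control 1 and −11.66 without HOXA13 3. All 3 control libraries lay above every HOXA13 library, and Gbp2b did not pass without HOXA13 1, without HOXA13 3 or in limma-voom.

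Gbp2 had 156, 6.66 and 34.0 CPM in control libraries and 4.01, 3.41 and 3.02 CPM in HOXA13 libraries, a log2 fold change of −4.23 ± 1.02. Control 1 was 23.4 times control 2, whereas control 2 was 1.91 times the HOXA13 mean. Without control 1 the log2 fold change was −2.56. The groups did not overlap, but most of the control mean came from control 1, and Gbp2 did not pass when any 1 HOXA13 library was left out or in limma-voom.

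Gbp3 had 34.1, 0.883 and 3.84 CPM in control and 1.98, 1.82 and 1.51 CPM in HOXA13 libraries. Control 2 lay below all HOXA13 libraries, so the groups overlapped, and the log2 fold change of −2.88 ± 1.10 shrank to −0.46 without control 1. Gbp7 had 10.3, 1.63 and 2.27 CPM in control and 1.78, 1.21 and 1.51 CPM in HOXA13 libraries, with −1.68 ± 0.67 over all libraries and −0.39 without control 1. In the edgeR fit over all libraries neither gene passed the threshold, whereas both did without control 2, and Gbp7 did in DESeq2. Gbp4 was counted 197, 3 and 36 times in control libraries and 4, 1 and 2 times in HOXA13 libraries, and Gbp6 had at most 8 counts in any library. In all 6 guanylate-binding protein genes listed the control order was 1, then 3, then 2, though Gbp6 had only 8, 1 and 4 counts there. Outside the list Gbp8, Gbp9 and Gbp11 had this order and Gbp5 and Gbp10 did not, most of them with few counts.

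The ratio of Gbp2b to Gbp2, per kilobase of exon, was 30.0, 24.6 and 23.6% in control 1, 2 and 3 and 0, 0 and 2.23% in HOXA13 libraries. The ratio was thus close among control libraries whose Gbp2 levels lay far apart, and in each HOXA13 library it was below that of every control library. With 0, 0 and 1 counts of Gbp2b the HOXA13 ratios rest on almost no reads.

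Among the other interferon-inducible GTPases, a list of 13 of which 5 entered the fit, 3 fell in HOXA13 libraries and none rose. Over all genes fitted, 13.3% fell and 14.4% rose. Igtp, an immunity-related GTPase that acts on vacuoles of intracellular parasites, fell by 2.12 ± 0.57 on the log2 scale (edgeR adjusted p = 0.027), from 10.0, 2.04 and 3.44 CPM to 1.22, 1.38 and 0.983 CPM, and by 1.20 without control 1. Irgm1, a regulator of that family, fell by 1.34 ± 0.36 (adjusted p = 0.0259), from 96.7, 31.7 and 50.1 CPM to 20.2, 24.5 and 26.6 CPM. Irgm2 fell by 1.24 ± 0.38 (adjusted p = 0.0429), from 7.00, 2.38 and 3.64 CPM to 1.88, 1.87 and 1.81 CPM. Without control 1 the log2 fold changes of Irgm1 and Irgm2 were −0.8 and −0.71, and Irgm2 did not pass. Iigp1 and Ifi47 did not pass, with 1.56, 0.883 and 1.57 CPM in control and 1.07, 1.21 and 0.907 CPM in HOXA13 libraries for Iigp1. Among the genes left out of the fit, Gbp9 gave 3.88, 0.408 and 0.657 CPM in control and at most 0.305 CPM in HOXA13 libraries, and Tgtp1 and Gvin1 were listed at 0 in every library. The 3 GTPases that fell again had control 1 highest and control 2 lowest, no GTPase passed when any 1 HOXA13 library was left out, 1 passed without control 3, 2 without control 1 and 1 in limma-voom.

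Among the transcription factors, Irf1 and Irf8 were lower and Irf9 was higher in HOXA13 libraries, and Irf2, Irf3, Irf5, Irf7 and Stat2 did not pass. Irf1, an activator of class I and guanylate-binding protein genes, had 72.9, 19.1 and 39.2 CPM in control and 15.03, 15.9 and 19.2 CPM in HOXA13 libraries, a log2 fold change of −1.41 ± 0.41. Control 2 lay just below HOXA13 3, so the groups overlapped. Without control 1 the log2 fold change was −0.83, and Irf1 did not pass without control 3 or when any 1 HOXA13 library was left out, nor with robust estimation or in limma-voom.

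Irf8, a factor best known from myeloid cells, had 2.94, 1.16 and 1.67 CPM in control and 0.660, 0.771 and 0.605 CPM in HOXA13 libraries, a log2 fold change of −1.51 ± 0.39 without overlap. Irf9, the DNA-binding chain of the type I interferon complex, had 15.2, 21.7 and 18.1 CPM in control and 24.8, 23.5 and 25.5 CPM in HOXA13 libraries, a log2 fold change of 0.43 ± 0.13. Its order among control libraries was the reverse of that of Irf1, with control 2 highest, and it did not pass without control 1, without control 3 or when any 1 HOXA13 library was left out. Irf9 also did not pass with library size alone or with each chromosome centred, where its log2 fold change was 0.15. Irf8 did not pass when any 1 HOXA13 library was left out.

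The log2 fold changes of the remaining 5 factors were −0.15 ± 0.12 for Stat2, which partners IRF9, −0.06 ± 0.21 for Irf2, 0.01 ± 0.09 for Irf3, 0.22 ± 0.24 for Irf5 and −0.25 ± 0.33 for Irf7. Irf3, which responds to nucleic acid sensors before any interferon is made, stood at 25.6 to 29.6 CPM in all 6 libraries, whereas Irf7, which amplifies the type I response, stood at 1.25 to 2.72 CPM.

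**Figure D2:**
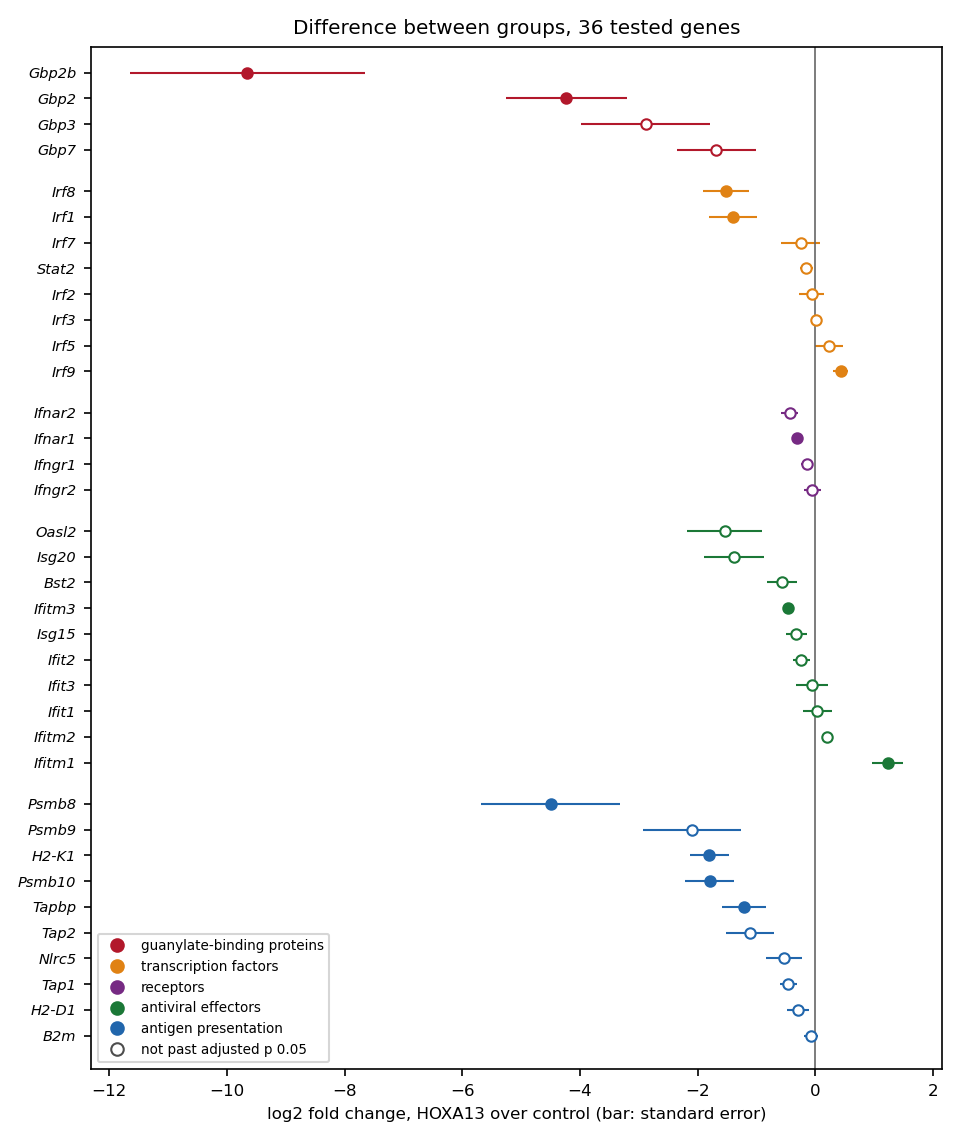
Log2 fold change of HOXA13 over control for the 36 genes fitted, with bars of 1 standard error, coloured by role, and filled where the adjusted p was under 0.05. The largest negative values belong to Gbp2b, Psmb8 and Gbp2, with wide errors, while Ifnar1 and Ifitm3 are near 0 with narrow errors, and Ifitm1 and Irf9 are the filled points above 0.

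The receptor chains were measured at moderate levels in every library. Ifnar1 had 73.0, 65.6 and 66.0 CPM in control and 56.2, 54.7 and 54.8 CPM in HOXA13 libraries, a log2 fold change of −0.31 ± 0.07 without overlap. Ifnar2 had 12.5, 17.7 and 14.96 CPM in control and 10.8, 10.8 and 11.8 CPM in HOXA13 libraries (−0.44 ± 0.14), without overlap but past the threshold only without control 1 and in 2 of 9 alternatives that kept every library. Both chains of the type I receptor lay lower in all 3 HOXA13 libraries than in any control library. Ifnar1 did not pass when any 1 HOXA13 library was left out.

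Both chains of the interferon gamma receptor overlapped between groups. Ifngr1 had 13.1, 14.1 and 14.3 CPM in control and 12.3, 12.0 and 13.3 CPM in HOXA13 libraries (−0.14 ± 0.10). Ifngr2 had 23.1, 31.7 and 32.1 CPM in control and 25.4, 29.8 and 28.7 CPM in HOXA13 libraries (−0.05 ± 0.14).

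The interferons themselves were near absent from the RNA. Of 10 ligand genes listed, 8 were in the files, none with more than 1 count in any library and 6 with none at all, among them Ifnb1, Ifna1, Ifna2, Ifna4 and Ifng. Such counts allow up to 3 counts per library, or 0.227 CPM in the shallowest.

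Of 20 other signalling genes, 19 entered the fit, of which 5 rose and 2 fell in HOXA13 libraries. Over all genes fitted, 14.4% rose and 13.3% fell. Those named here are 4 signalling genes that rose and both that fell. Socs1, a feedback inhibitor of JAK kinases that interferon gamma induces, fell by 1.495 ± 0.38 on the log2 scale (edgeR adjusted p = 0.0225), from 7.58, 2.79 and 4.60 CPM to 1.27, 2.04 and 2.12 CPM. Ptpn1, a phosphatase that acts on JAK2 and TYK2, fell by 0.34 ± 0.08 (adjusted p = 0.0165). Ifnlr1, a chain of the interferon lambda receptor, rose by 1.62 ± 0.39 (adjusted p = 0.0177), from 0.936, 0.272 and 1.16 CPM to 2.59, 2.64 and 2.34 CPM.

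Jak1, the kinase shared by both interferon receptors, rose by 0.50 ± 0.12 (adjusted p = 0.0163), from 108, 153 and 133 CPM to 192, 189 and 175 CPM. Ptpn2, a phosphatase that acts on JAK1, rose by 0.48 ± 0.08 (adjusted p = 0.00336), from 72.2, 69.5 and 72.7 CPM to 108, 101 and 90.6 CPM. Setdb1, a histone methyltransferase that silences endogenous retroviruses in mESCs, rose by 0.41 ± 0.06 (adjusted p = 0.00137). Ptpn2 and Setdb1 passed with any 1 library left out. Socs1, Ptpn1 and Ifnlr1 did not pass when any 1 HOXA13 library was left out, nor did Socs1, Ptpn1 and Jak1 without control 3, and Jak1 failed without HOXA13 1 or HOXA13 2.

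Of 20 nucleic acid sensing genes, 17 entered the fit. At the adjusted threshold in the edgeR fit 3 rose and none fell, beside 14.4% higher and 13.3% lower over all genes fitted. At an unadjusted p under 0.05, 3 were lower, and DESeq2 and limma-voom each called 0 lower. Tmem173, which encodes the DNA sensing adaptor STING, rose by 1.34 ± 0.18 (adjusted p = 0.00136), from 5.08, 7.88 and 6.21 CPM to 14.9, 14.9 and 18.6 CPM. Aim2, a cytosolic DNA receptor of the inflammasome, rose by 0.78 ± 0.11 (adjusted p = 0.002), from 29.7, 33.2 and 25.01 CPM to 54.5, 48.3 and 48.2 CPM. Mavs, the adaptor of RNA sensors, rose by 0.73 ± 0.09 (adjusted p = 0.000768), from 28.5, 26.2 and 25.3 CPM to 41.6, 47.0 and 43.9 CPM. All 3 passed with any 1 library left out, and without control 2 another 3 sensing genes were lower.

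Of the 10 antiviral effectors fitted, Ifitm3 was lower, Ifitm1 was higher and 8 did not pass, beside 13.3% lower and 14.4% higher over all genes. The 3 Ifitm genes encode membrane proteins that block virus entry and lie together on chromosome 7, from chr7:148140736-148141882 (Ifitm2) to chr7:148195485-148196669 (Ifitm3). They are similar in sequence, so reads could be shared in the counting.

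Ifitm3 had 171, 138 and 167 CPM in control and 111, 119 and 116 CPM in HOXA13 libraries, a log2 fold change of −0.46 ± 0.09. Ifitm1 had 83.1, 38.3 and 90.1 CPM in control and 165, 169 and 165 CPM in HOXA13 libraries, a log2 fold change of 1.23 ± 0.26. Ifitm2 had 81.2, 69.5 and 83.3 CPM in control and 87.2, 93.2 and 89.7 CPM in HOXA13 libraries (0.21 ± 0.08). None of the 3 overlapped between groups, and the neighbouring genes Ifitm3 and Ifitm1 differed in opposite directions. Ifitm3 passed with any 1 library left out, while Ifitm1 did not pass without HOXA13 1.

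Ifit1, Ifit2, Ifit3 and Isg15, which type I interferon is known to induce, did not pass the threshold in the edgeR fit over all libraries. Ifit1, which binds viral RNA, had 3.79, 5.50 and 7.38 CPM in control and 5.79, 5.23 and 6.05 CPM in HOXA13 libraries (0.04 ± 0.24). Ifit3 had 3.26, 4.83 and 7.02 CPM in control and 4.57, 4.51 and 5.44 CPM in HOXA13 libraries (−0.06 ± 0.28). Both had control 3 highest and control 1 lowest, an order unlike that of the guanylate-binding proteins. The Ifit1 promoter printed above and those of Gbp2b and Gbp2 share the match TTTCACTTT.

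Ifit2 had 8.61, 8.97 and 10.8 CPM in control and 8.38, 8.42 and 7.11 CPM in HOXA13 libraries (−0.24 ± 0.14). Isg15, a ubiquitin-like modifier, had 9.10, 6.52 and 9.30 CPM in control and 6.45, 7.49 and 5.97 CPM in HOXA13 libraries (−0.33 ± 0.18). Rsad2, which encodes viperin, was counted 7, 5 and 16 times in control libraries and 16, 8 and 7 times in HOXA13 libraries and was not fitted.

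Oasl2, Isg20 and Bst2 followed the control order 1, 3, 2. Oasl2, of the oligoadenylate synthetase family, had 15.4, 1.90 and 5.204 CPM in control and 3.00, 2.09 and 2.80 CPM in HOXA13 libraries (−1.54 ± 0.64, and −0.48 without control 1). Isg20, a ribonuclease, had 4.68, 1.16 and 2.43 CPM in control and 0.660, 1.21 and 1.44 CPM in HOXA13 libraries (−1.38 ± 0.51, and −0.77 without control 1). Bst2, which tethers budding viruses, had 51.3, 22.7 and 41.3 CPM in control and 24.5, 26.4 and 27.1 CPM in HOXA13 libraries. Its log2 fold change was −0.57 ± 0.25, and −0.31 without control 1. In all 3 genes control 2 lay within or below the HOXA13 range, and all 3 passed the threshold only when control 2 was left out, apart from Isg20, which also passed in DESeq2.

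Of 40 other interferon-stimulated genes, 35 entered the fit, of which 7 fell and 2 rose, beside 13.3% lower and 14.4% higher over all genes. Nmi, an interferon-induced partner of STAT proteins, fell by 2.04 ± 0.58 (edgeR adjusted p = 0.0321), from 7.13, 1.77 and 2.173 CPM to 1.22, 0.771 and 0.680 CPM, and by 1.12 without control 1. Dtx3l and Parp9, which form a complex, fell by 1.27 ± 0.27 (adjusted p = 0.0104) and 1.11 ± 0.34 (adjusted p = 0.0423). Without control 1 their log2 fold changes were −0.88 and −0.54. Mx2 fell by 1.14 ± 0.32 (adjusted p = 0.0309) at levels of 1.07 CPM or less, but passed in 1 of 6 fits with 1 library left out, and not in DESeq2 or with no filter. Ifi30, a lysosomal thiol reductase of antigen processing, fell by 0.56 ± 0.10 (adjusted p = 0.00577), from 34.8, 44.2 and 38.9 CPM to 25.7, 26.5 and 27.8 CPM.

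Oas1g, an oligoadenylate synthetase with close paralogs, rose by 2.69 ± 0.41 (adjusted p = 0.00236), from 0.268, 0.204 and 0.101 CPM to 1.57, 1.16 and 1.06 CPM. The control values rest on 6, 3 and 2 reads, and Oas1g left the fit with at least 10 counts in every library. Its paralogs Oas1a and Oas1c did not pass. Zc3hav1, the zinc finger antiviral protein, rose by 1.16 ± 0.21 (adjusted p = 0.00585), from 36.4, 18.0 and 24.4 CPM to 59.9, 56.8 and 60.6 CPM. Ifi30, Oas1g and Zc3hav1 passed with any 1 library left out. Dtx3l did not pass without HOXA13 1 or HOXA13 2. Parp9 passed without control 1 or control 2 alone, and not with robust estimation, in DESeq2 or in limma-voom, and Nmi lost its call in limma-voom and when any 1 HOXA13 library was left out. Without 1 HOXA13 library only 1 or 2 genes of the list were lower, without control 3 there were 4, and without control 2 there were 12.

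Of the 10 genes of class I antigen presentation, all fitted, 4 were lower (H2-K1, Tapbp, Psmb8 and Psmb10), beside 13.3% of all genes, and none was higher. The groups did not overlap, with HOXA13 lower, in 7, beside 22.2% of all genes. Most of the genes lie in the major histocompatibility complex on chromosome 17, from chr17:34052844-34066235 (Tapbp) through H2-K1, Psmb9, Tap1, Psmb8 and Tap2 to chr17:35399675-35404444 (H2-D1), and B2m, Psmb10 and Nlrc5 lie on chromosomes 2, 8 and 8. Psmb9 (chr17:34318932-34324697, minus strand) and Tap1 (chr17:34324498-34334170, plus strand) overlap at their starts, and the sources do not give the strand setting of the counting.

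H2-K1, a classical class I heavy chain, had 64.4, 22.8 and 37.1 CPM in control and 12.3, 12.8 and 10.7 CPM in HOXA13 libraries, a log2 fold change of −1.80 ± 0.33. The lowest control library stood at 1.91 times the HOXA13 mean, and H2-K1 passed in all 15 alternative fits, with log2 fold changes of −2.10 to −1.33 when 1 library was left out. H2-D1, the other classical heavy chain measured, had 13.8, 8.15 and 10.5 CPM in control and 9.04, 8.92 and 8.62 CPM in HOXA13 libraries. Its log2 fold change was −0.30 ± 0.19, and −0.08 without control 1, with control 2 below all HOXA13 libraries. B2m, the light chain, had 90.2, 124 and 120 CPM in control and 101, 107 and 109 CPM in HOXA13 libraries (−0.08 ± 0.12). Heavy chain genes share long stretches of sequence and differ between mouse haplotypes, so reads may be lost or moved between them.

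Per kilobase of exon, H2-K1 amounted to 23.6, 6.10 and 10.2% of B2m in control and 4.01, 3.94 and 3.26% in HOXA13 libraries. In each HOXA13 library the share was below that in every control library. B2m itself overlapped between groups.

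The peptide transporter and its docking protein differed by less than H2-K1 did. Tapbp, which encodes tapasin and holds class I chains at the transporter, had 134, 39.5 and 73.2 CPM in control and 31.7, 37.4 and 38.0 CPM in HOXA13 libraries (−1.21 ± 0.37). Tap1 had 18.5, 12.8 and 14.7 CPM in control and 10.7, 11.3 and 11.6 CPM in HOXA13 libraries (−0.46 ± 0.15). Tap2 had 22.03, 6.32 and 9.45 CPM in control and 5.79, 5.89 and 6.12 CPM in HOXA13 libraries (−1.10 ± 0.41, and −0.43 without control 1). In all 3 genes the groups did not overlap, but control 2 was at most 1.14 times the HOXA13 mean. Tapbp did not pass without control 3 or when any 1 HOXA13 library was left out, nor with robust estimation, in DESeq2 or in limma-voom. Tap1 and Tap2 did not pass over all libraries but did without control 2, as did Tap1 in 5 and Tap2 in 1 of 9 alternatives that kept every library.

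The immunoproteasome replaces the catalytic subunits PSMB5, PSMB6 and PSMB7 with PSMB8, PSMB9 and PSMB10 and cuts peptides fit for class I. Psmb8 had 27.5, 1.02 and 4.95 CPM in control and 0.305, 0.495 and 0.756 CPM in HOXA13 libraries, a log2 fold change of −4.50 ± 1.17 that became −2.63 without control 1. Psmb10 had 113, 34.4 and 40.6 CPM in control and 17.5, 19.3 and 17.7 CPM in HOXA13 libraries (−1.80 ± 0.42, and −1.05 without control 1). Psmb9 had 4.68, 0.476 and 1.06 CPM in control and 0.254, 0.550 and 0.756 CPM in HOXA13 libraries (−2.10 ± 0.83, and −0.68 without control 1), overlapped between groups and did not pass in the edgeR fit over all libraries, but passed without control 2 and in DESeq2. Psmb8 and Psmb10 did not pass when any 1 HOXA13 library was left out, nor did Psmb8 in limma-voom.

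Among the constitutive partners, Psmb5 rose by 0.58 ± 0.16 (edgeR adjusted p = 0.0334), from 37.1, 57.5 and 36.9 CPM to 66.1, 66.3 and 62.6 CPM. Psmb6 had an adjusted p of 0.571 and Psmb7 of 0.0501. Per kilobase of exon, Psmb8 amounted to 25.0, 0.597 and 4.52% of Psmb5 in control and 0.155, 0.252 and 0.407% in HOXA13 libraries. Psmb10 amounted to 58.2, 16.5 and 19.9% of Psmb7 in control and 7.34, 8.33 and 8.01% in HOXA13 libraries. Psmb9 was at most 0.98% of Psmb6 in any library. The ratios of Psmb8 and Psmb10 thus separated the groups, while for Psmb9 control 2 lay among the HOXA13 libraries.

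**Figure D3:**
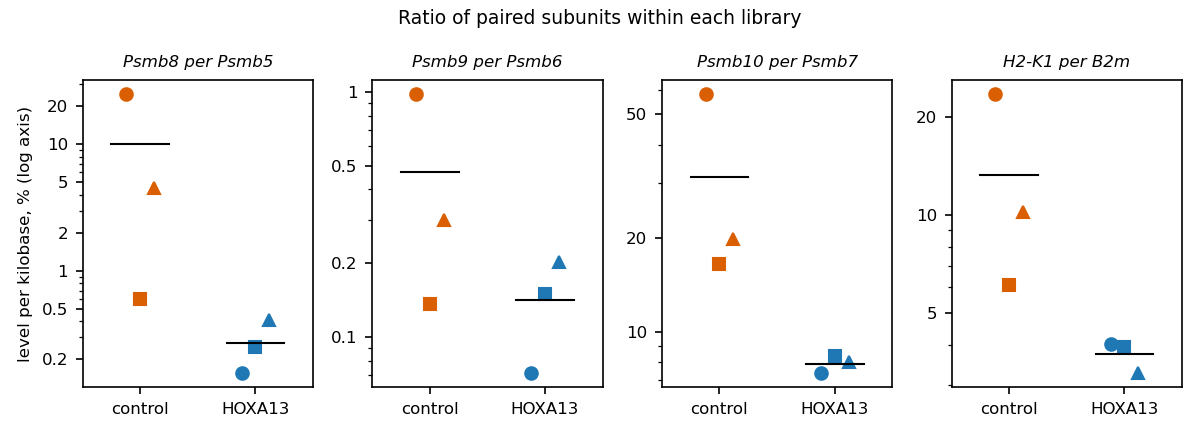
Level per kilobase of exon of each immunoproteasome subunit as a percentage of its constitutive partner, and of H2-K1 as a percentage of B2m, on log axes, with control libraries in orange, HOXA13 libraries in blue, circles, squares and triangles for replicates 1, 2 and 3, and a line at the group mean. Control 1 is highest in each panel, and only Psmb9 over Psmb6 overlaps between groups.

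Nlrc5, the transactivator of class I genes, was low, with 2.05, 1.16 and 1.21 CPM in control and 1.02, 1.10 and 0.983 CPM in HOXA13 libraries. Its log2 fold change was −0.53 ± 0.31, and −0.195 without control 1. The groups did not overlap, and the threshold was not passed in any fit.

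Of 28 other class I genes, 17 entered the fit. At the adjusted threshold in the edgeR fit 5 fell and none rose, beside 13.3% lower and 14.4% higher over all genes fitted. At an unadjusted p under 0.05, 1 was higher, and DESeq2 and limma-voom each called 0 higher. H2-Q4, a class Ib heavy chain, fell by 2.73 ± 0.52 (edgeR adjusted p = 0.00671), from 15.7, 3.87 and 6.21 CPM to 1.52, 1.16 and 1.21 CPM, and by 1.96 without control 1. Erap1, which trims peptides in the endoplasmic reticulum, fell by 1.84 ± 0.57 (adjusted p = 0.044), from 50.03, 8.02 and 18.5 CPM to 7.57, 6.05 and 8.01 CPM, and by 0.91 without control 1. Canx and Pdia3, chaperones of the loading complex, fell by 0.50 ± 0.10 (adjusted p = 0.00689) and 0.25 ± 0.07 (adjusted p = 0.0312). Rfx5, a factor that binds class I and class II promoters, fell by 0.40 ± 0.11 (adjusted p = 0.0322).

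H2-Q1, H2-Q6, H2-Q7 and H2-Q8 were listed at 0 in every library, and as near-identical copies they can lose their reads in the counting. H2-Q4 and Canx passed with any 1 library left out. Rfx5 did not pass without control 1, control 3, HOXA13 1 or HOXA13 3, and Pdia3 did not without control 3 or when any 1 HOXA13 library was left out. Erap1 did not pass without control 3, when any 1 HOXA13 library was left out, with robust estimation or in limma-voom, and between 2 and 9 genes of the list were lower when 1 library was left out, with 9 without control 2. Of 11 class II genes, H2-DMa and Ctss alone entered the fit and neither passed in the edgeR fit, with 0 in either direction at an unadjusted p under 0.05, and limma-voom called 0. DESeq2, which filters low counts differently and gave more genes of the list an adjusted p, called 1 lower, Cd74, the class II invariant chain, which is named here after its values were seen. Cd74 did not enter the edgeR fit and had 2.50, 0.340 and 1.57 CPM in control and 0.102, 0.385 and 0.151 CPM in HOXA13 libraries, so that control 2 lay among the HOXA13 libraries. Ciita, the class II transactivator, had at most 0.202 CPM.

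At the median, control libraries stood further apart in these genes than over all genes fitted. Receptors and transcription factors took little part in this, and the list was chosen with the control spread of Gbp2b known. The range over the 3 control libraries on the log2(CPM + 0.5) scale had a median of 0.88 over the 36 genes, against 0.20 over the 3 HOXA13 libraries. Over all genes fitted the medians were 0.30 and 0.17. The control range was the wider one in 34 of the 36 genes and in 9889 of all 13846. It exceeded 1 in 17 of the 36, and in no gene of the 36 did the HOXA13 range exceed 1. How many of all genes fitted exceeded 1 was not counted, so these counts have no background beside them.

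By role, the median control range was 4.48 for the guanylate-binding proteins, 1.59 for antigen presentation, 0.94 for the antiviral effectors, 0.47 for the transcription factors and 0.31 for the receptors. The HOXA13 ranges were 0.33, 0.12, 0.21, 0.21 and 0.13 in the same order. The roles with the widest control spread were also those with the largest median log2 fold changes, −3.56 for the guanylate-binding proteins and −1.16 for antigen presentation, against −0.28, −0.11 and −0.22 for the antiviral effectors, transcription factors and receptors. Both values use the same control libraries, so the 2 are not separate observations. Without control 1 the log2 fold changes of Gbp2b, Gbp2, Gbp3 and Gbp7 were −7.69, −2.56, −0.46 and −0.39. Those of the antigen presentation genes then became smaller in size, except for B2m.

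**Figure D4:**
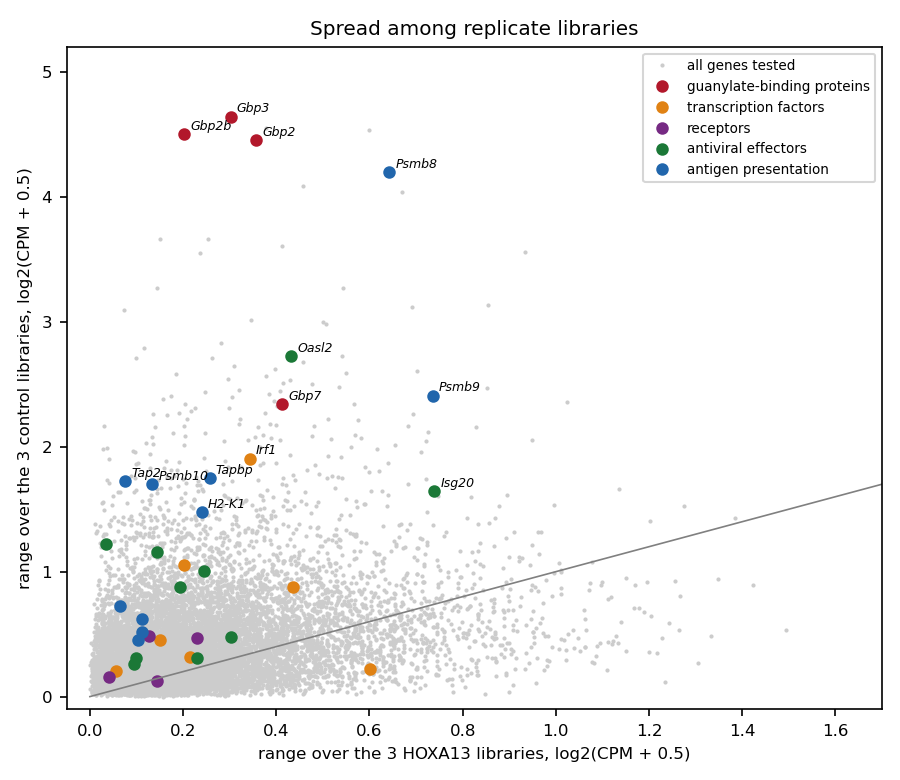
Range of log2(CPM + 0.5) over the 3 control libraries (vertical) against the range over the 3 HOXA13 libraries (horizontal) for the 36 genes fitted, coloured by role, with all 13846 genes fitted in grey and a line of equal ranges. Gbp3, Gbp2b, Gbp2 and Psmb8 have control ranges above 4, and 34 of the 36 genes lie above the line.

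Control 1 was highest, control 3 intermediate and control 2 lowest in 20 of the 36 genes (55.6%), against 25.5% of all genes fitted. By role this held for 4 of 4 guanylate-binding proteins, 9 of 10 antigen presentation genes, 4 of 10 antiviral effectors, 2 of 8 transcription factors and 1 of 4 receptors. Control 2 was the lowest control library in 24 of the 36 (66.7%), against 35.6% of all genes. However many genes follow this order, it is an order of 3 libraries.

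The markers of the primitive streak, the first mesendoderm of the embryo, had the same control order. Their sum over 8 genes was 526, 93.4 and 269 CPM in control 1, 2 and 3 and 48.0, 48.9 and 49.7 CPM in HOXA13 1, 2 and 3. All 8 had the order 1, 3, 2 among control libraries, beside 25.5% of all genes fitted. In HOXA13 libraries 7 of 8 fell, beside 13.3% of all genes fitted, with Gsc not past the threshold. T, the mesoderm factor Brachyury, had 181, 10.5 and 85.2 CPM in control and 1.37, 2.48 and 2.27 CPM in HOXA13 libraries. The pluripotency sum ran the other way, lowest in control 1 and highest in control 2 among control libraries and higher still in HOXA13 libraries. The fibroblast sum was lowest in control 1, the library in which most of the interferon genes were highest, and the leukocyte sum was lowest there too, with Laptm5 alone at 15.2, 50.9 and 17.1 CPM in control and 65.8, 60.3 and 56.9 CPM in HOXA13 libraries. The part of pluripotency or differentiation, of feeder cells or of leukocyte genes in the interferon and antigen presentation values was not tested.

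**Figure D5:**
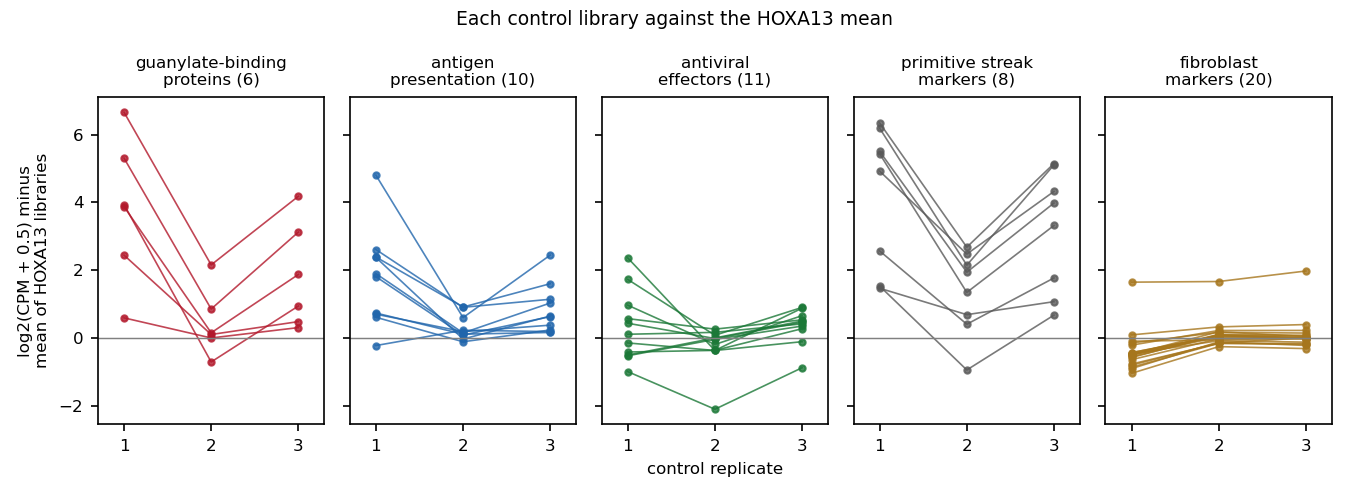
Level in each control library minus the mean of the 3 HOXA13 libraries, on the log2(CPM + 0.5) scale, with 1 line per gene for the 6 guanylate-binding proteins, 10 antigen presentation genes, 11 antiviral effectors, 8 primitive streak markers and 20 fibroblast markers. The lines of the guanylate-binding proteins, most antigen presentation genes and the primitive streak markers dip at control 2, whereas most fibroblast lines are nearly flat and lowest at control 1.

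The counts were also taken without control 1, which carried the highest values. Of 37 listed genes fitted without it, 12 were lower, comprising all 10 that were lower with it and in addition B2m and Ifnar2, and 1 was higher (Ifitm1), while 14.8% of all 13993 genes fitted were lower and 16.2% were higher. The log2 fold changes were then −1.33 for H2-K1, −0.67 for Tapbp and −0.41 for Ifitm3, nearer to 0 than with control 1, and −0.56 for Ifnar2, −0.21 for B2m and 1.36 for Ifitm1, further from 0. Without control 2, 21 of 38 listed genes fitted were lower (18.3% of all genes), and without control 3, 8 of 36 (8.82% of all genes). Without HOXA13 1, 2 or 3, 2 of 37, 3 of 38 and 2 of 38 were lower, against 6.42, 6.75 and 7.31% of all genes. H2-K1 and Ifitm3 were the listed genes past the threshold in every one of these fits.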

How the data were processed

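Poly(A) RNA of 6 KH2 mESC cultures (3 control, 3 HOXA13) was sequenced from stranded libraries. The authors deposited 1 table of HTSeq read counts per gene symbol and library, unnormalized; per the submitters' processing notes these were made with bcl2fastq 2.17, TopHat2 2.0.14 and HTSeq 0.6.1p1 on mm9. The annotation, the counting mode and the strand setting are not given in the sources used here. No row without a gene was present in the tables.

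Counts were filtered by filterByExpr (minimum count 10), scaled by TMM and fitted with edgeR 4.0.16 quasi-likelihood tests in R 4.3.3, HOXA13 against control, with Benjamini-Hochberg adjustment over all 13846 genes and a threshold of 0.05. CPM use TMM-scaled totals, with 0.5 added before log2. The code was run on simulated counts as a self-test, which does not check the calls in these libraries. Coordinates, exon lengths and genes come from the mm9 annotation (GENCODE), promoters from RefSeq on GRCm38.p6. All listed genes are named, with library values for those past the threshold or with a log2 fold change of at least 1 in size and their relatives. From each other list, at most 5 genes past the threshold per direction are named. Single results for some genes of the other lists are not reported here. The listed genes and the other lists were chosen with earlier results of these data known. Marker lists covered fibroblasts, leukocytes, pluripotency and the primitive streak. Alternatives were RLE or library-size scaling, other filters, a replicate block, robust estimation, chromosome centring, DESeq2 1.42.0, limma-voom (limma 3.58.1) and leaving out each library. Figures were drawn with matplotlib 3.10.9. Intervals and the floor of 3 counts cover counting error only.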

Additional observations from a re-analysis of the deposited data

How the results depend on the processing

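The direction of the group difference was the same in every alternative fit for the listed genes past the threshold. The median control and HOXA13 ranges were also taken with RLE or library-size scaling and with at least 10 counts in every library. They moved by less than the SD of the control ranges across the listed genes. That SD is a spread between genes, not between replicates, so it is a lenient yardstick. For the 39 listed genes, limma-voom called 5 of 36 lower (12.5% of all genes), DESeq2 15 of 39 (12.7%) and the filter of at least 10 counts in every library 7 of 32 (13.1%), against 10 of 36 over all libraries in edgeR (13.3%). Library size alone and the replicate block each called 1 higher, and leaving out 1 library gave 2 to 21 lower and 0 to 2 higher. With the replicate block 8 of 36 were lower (10.7% of all genes), without Irf1 and Tapbp, Irf9 was not called, and among the other genes named Irgm2, Mx2, Socs1, Rfx5 and Pdia3 did not pass. Same-numbered libraries did not deviate together (correlations −0.0154, −0.0454 and 0.0182). Such correlations cannot show whether same-numbered cultures were handled together, and the sources used here do not say. Other GTPases: 1 lower in limma-voom, and 0 to 4 lower with 1 library left out. Other interferon-stimulated genes: 1 higher with at least 10 counts in every library, and 1 to 12 lower and 2 to 3 higher with 1 library left out. Signalling genes: 0 to 3 lower and 2 to 6 higher with 1 library left out. Sensing genes: 2 lower with library size alone, 1 with no filter, 1 with the replicate block, and 0 to 3 with 1 library left out. Other class I genes: 8 lower with library size alone, with no filter and in DESeq2, 3 with the replicate block, and 2 to 9 lower and 0 to 1 higher with 1 library left out. Class II genes: 1 lower with no filter and in DESeq2, and 0 to 1 with 1 library left out. With 2 libraries left in a group the fits have fewer degrees of freedom. Why the other counts moved was not tested. Low counts limit Gbp6, Rsad2 and the ligands. Gbp4 missed the filter with 3 counts in control 2 and at most 4 in HOXA13 libraries, despite 197 in control 1, and with no filter 11 listed genes were lower.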
